A study of Mus musculus with 4 samples.

Results

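Collagen chain genes were measured in sorted stromal cells of mouse bone marrow, in mice with a myeloproliferative neoplasm (MPN), an overproduction of blood cells, and in a control mouse. The members were all genes whose single symbol in the array's gene annotation has the form of a collagen chain (Col, a number, a, a number). This gave 44 genes of the 19938 with a value, each represented by its probe set with the highest average across the 4 arrays. The MPN group was 3 mice of strain C57BL/6 with the labelled genotype Nes-gfp;Mx1-cre;JAK2-V617F, and the control was 1 C57BL/6 mouse labelled Nes-gfp. Per the design text, all were Nes-gfp recipients examined 10 weeks after transplantation, and the Mx1-cre and JAK2-V617F alleles were those of the marrow cells given to the MPN group. Mx1-cre is an inducible recombinase, and how it was induced is not given in the sources used here, nor are the ages of the mice. The sorted cells were labelled CD45-, CD31- and Ter119-, which is meant to leave out blood, endothelial and red cells, and Nes-GFP+, which means that the nestin promoter drove their green fluorescent protein.

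Collagens are proteins of the extracellular matrix built from chains that wind into a triple helix, some from identical chains and some from the products of several genes. Fibrillar collagens form the load-bearing fibres of bone and connective tissue, and FACIT collagens (fibril-associated collagens with interrupted triple helices) sit on the surface of those fibres. Basement membrane collagens form the sheets under epithelium and endothelium, and network collagens form hexagonal lattices. In bone marrow, reticular stromal cells and bone-forming cells are the textbook sources of collagen, and marrow fibrosis is a known late course of some myeloproliferative neoplasms.

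Values are the deposited log2 values of the Affymetrix gene arrays. The arrays had like medians, from 5.09 to 5.16 in MPN mice and 5.13 in the control mouse. A background limit of 5.21 was taken from olfactory and vomeronasal receptor genes, and 42 of the 44 members had a group mean above it (95.5%, against 60% of all genes). The limit comes from other probes, so a value above it does not show that a collagen was expressed. The median gene of all genes was 0.179 higher in MPN than in the control, and the receptor genes were 0.255 higher, so a small positive difference is the common state of these arrays. Over the genes above the background limit the median difference was smaller, at 0.0785. Differences are the mean of the MPN arrays minus the control array, on the log2 scale. SE is the standard error from limma, fitted on all genes. The spread comes from the MPN arrays alone and the control was assumed to vary alike. An exact permutation test of 3 arrays against 1 cannot go below p = 0.25 one-sided, or 0.5 where that p is doubled for a two-sided test.

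The array labels and the sorted cell type were set against marker genes. Nes itself was at 4.56, 3.92 and 4.26 in MPN mice and 4.26 in the control mouse, under the background limit in both groups. Of 15 mesenchymal stromal markers, 14 were at least 2-fold lower on each MPN array, against 5.78% of all genes. The summed linear level of the 15 was 904 to 1908 in MPN against 15276 in the control. All 10 pan-leukocyte markers had an MPN mean above the limit and 9 of 10 were above it in the control. On each MPN array 7 of 10 were 2-fold higher, against 1.13% of all genes. The summed level of the 10 was 5361 to 8940 in MPN against 942 in the control, although the sort selected against CD45. The corresponding sums of 10 neutrophil markers were 27225 to 36765 in MPN and 8362 in the control. For endothelial markers 6 of 10 had an MPN mean above the limit and 2 of 10 were above it in the control, with sums of 347 to 421 in MPN and 277 in the control. Kdr, Tek, Emcn and Esam were under the limit in both groups. These marker differences stand beside every collagen difference given below, and their part in it was not tested. In sorted bulk cells, fewer cells of a type and less RNA per cell cannot be told apart.

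Collagen genes did not move as one family. A subset of 7 genes was lower by 2-fold or more on every MPN array: Col1a1, Col1a2, Col5a2 and Col11a1 among the fibrillar chains, Col12a1 among the FACIT chains, Col8a1 among the network chains and Col6a3 of the beaded filaments. That is 15.9% of the members, where 5.78% of all genes were 2-fold lower on each MPN array. Among genes with a group mean above the background limit the shares were 16.7% of 42 collagen genes and 9.36% of all such genes. Their differences ran from -3.75 for Col12a1 to -1.52 for Col11a1. None of the 44 members was 2-fold higher on each MPN array, against 1.13% of all genes. The other 37 members had a median difference of 0.13, against 0.179 for all genes. Among genes above the background limit these medians were 0.128 and 0.0785.

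With limma, 0 members passed an adjusted p of 0.05 over all genes, as did 0% of all genes. At an unadjusted p under 0.05, 6 members were lower, which is 13.6% of them against 8.63% of all genes, and 0 were higher, against 3.97% of all genes. Above the background limit the shares of lower genes at that p were 14.3% of collagen genes and 13.3% of all such genes, which is nearly alike. The smallest adjusted p among members, 0.0871, was shared by Col1a1, Col12a1 and Col6a3 and was also the smallest of all genes. All 3 MPN arrays lay below the control for 11 members, 25% of them, against 21.1% of all genes, and all 3 lay above it for 14 members, or 31.8%, against 46.8% of all genes. Above the background limit the shares below the control were 26.2% of collagen genes and 29.9% of all such genes, so that order turned, and those above the control were 31% and 36.9%.

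**Figure D1:**
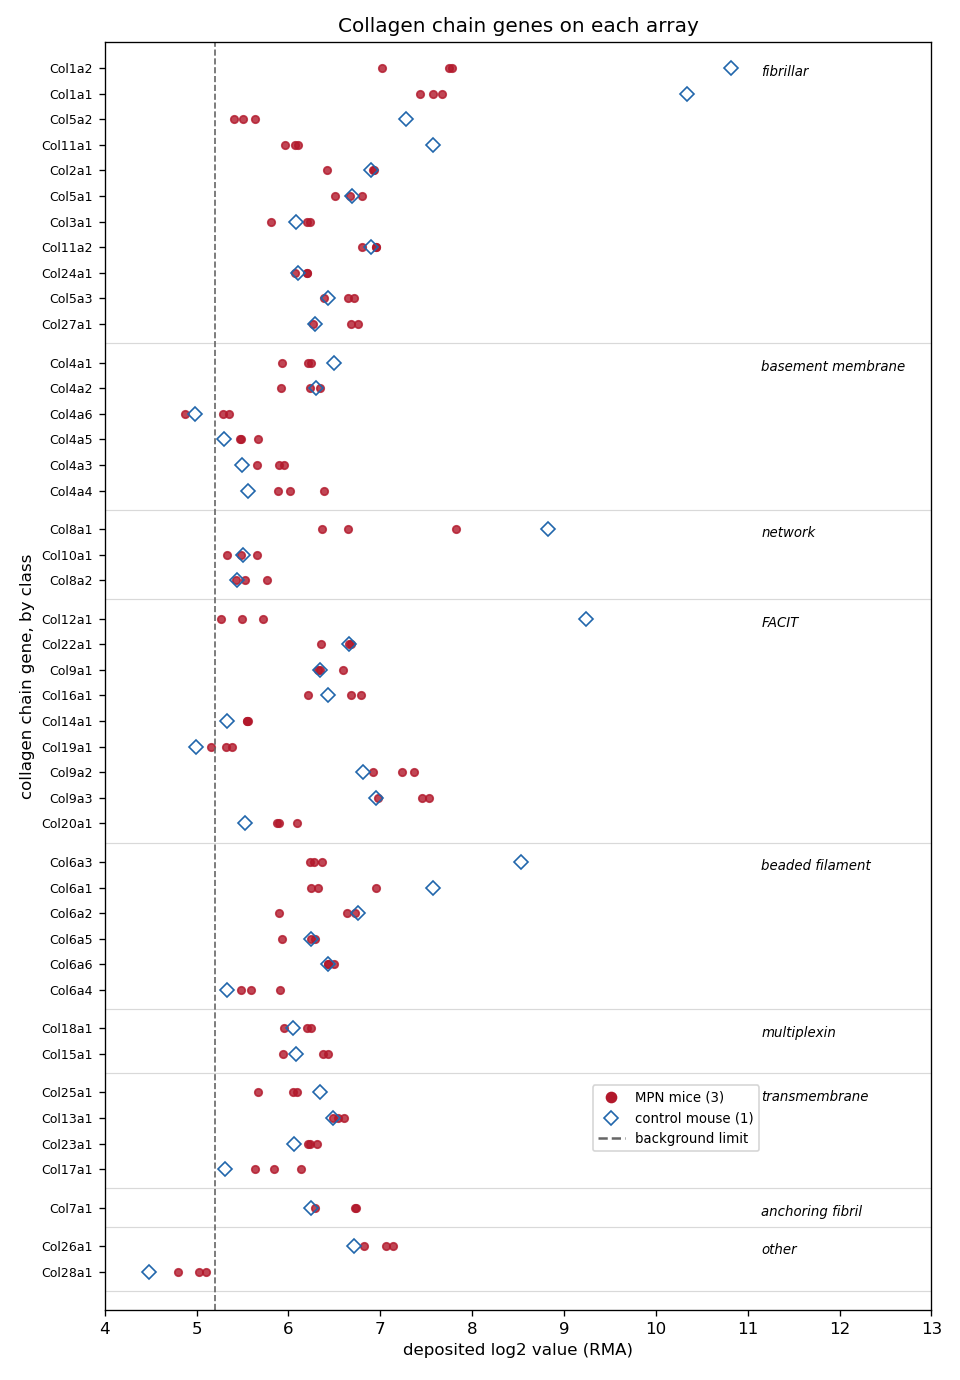
Deposited log2 value of each of the 44 collagen chain genes (rows, by class) on the 3 MPN arrays (red points) and the control array (blue diamond), with the background limit of 5.21 as a dashed line. The control diamond stands clear to the right of the MPN points for 7 genes and Col6a1, and lies among or near them for most others.

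Type I collagen, the main fibre of bone and of most connective tissue, is assembled from the products of Col1a1 and Col1a2. Col1a1 (probe set 10380419) was at 7.43, 7.58 and 7.67 in MPN mice and at 10.34 in the control mouse. Col1a2 (probe set 10536220) was at 7.02, 7.78 and 7.75 in MPN and at 10.81 in the control. Both chains were thus far below the control in every MPN mouse, and no MPN value came near the control. The difference was -2.78 (SE 0.18) for Col1a1, or 6.85-fold lower, with adjusted p = 0.0871 by limma. For Col1a2 it was -3.30 (SE 0.41), or 9.85-fold lower, with adjusted p = 0.136 by limma. MPN mouse 1 had the lowest value of both chains.

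Type V collagen is incorporated into type I fibres and helps to start them. Its chain Col5a2 (probe set 10354309) was at 5.64, 5.51 and 5.41 in MPN mice and 7.28 in the control mouse, a difference of -1.76 (SE 0.18) with adjusted p = 0.108 by limma. The MPN values of Col5a2 lie close to the background limit, so the size of its difference depends on where background lies. The partner chain Col5a1 was at 6.67, 6.80 and 6.51 in MPN and 6.69 in the control. Those Col5a1 groups overlapped, with a difference of -0.03 (SE 0.20). Col5a3, another type V chain, was at 6.64, 6.72 and 6.39 against 6.44 in the control and overlapped as well.

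Type XI collagen, a minor fibrillar type best known from cartilage, showed the same kind of split. Col11a1 (probe set 10495449) was at 6.07, 6.11 and 5.96 in MPN mice and 7.57 in the control mouse. Its values in the 3 MPN mice differed by little, and all lay under the control, with a difference of -1.52 (SE 0.16) and adjusted p = 0.112 by limma. Col11a2 was at 6.95, 6.95 and 6.80 in MPN and 6.90 in the control. Col2a1, the cartilage collagen gene whose product also serves as a chain of type XI, was at 6.92, 6.94 and 6.42 in MPN and 6.90 in the control. Neither of these partners was separated from the control. Beside them, 4 of 10 chondrocyte markers had an MPN mean above the background limit and 5 were above it in the control, and their summed level was 391 to 891 in MPN and 590 in the control.

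The remaining fibrillar chains stayed near the control. Col3a1, the gene of the type III collagen of vessels and reticular fibres, was at 6.24, 6.20 and 5.81 in MPN and 6.09 in the control. Its difference was 0.00 (SE 0.26), and the MPN values lay on both sides of the control. Col24a1 was at 6.20, 6.20 and 6.07 in MPN mice and 6.11 in the control mouse. Col27a1, a chain known from cartilage, was at 6.68, 6.76 and 6.27 in MPN mice and 6.28 in the control mouse. In both genes the value of MPN mouse 3 was just under that of the control and the other two were above it. Over the 11 fibrillar genes, 4 were 2-fold lower on each MPN array and the median difference was -0.03, with class medians of 0.03, 0.06 and -0.28 for MPN mice 1, 2 and 3. That median is near 0, and its sign turned after repeated quantile normalisation (0.19) and without MPN mouse 3 (0.05). Relative to the median of all genes it was -0.21 as deposited and 0.08 after repeated quantile normalisation. Relative to the median of genes above the background limit it was -0.11.

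Col12a1 had the largest difference of the 44 members. It encodes the type XII FACIT collagen, which binds along type I fibres. Col12a1 (probe set 10595211) was at 5.72, 5.49 and 5.26 in MPN mice against 9.24 in the control mouse. The MPN values were close together and far below the control. The difference was -3.75 (SE 0.25), or 13.4-fold lower, with adjusted p = 0.0871 by limma. The MPN values lie close to the background limit, so the size of this fold depends on where background lies. None of the other 8 FACIT genes was 2-fold lower. Col14a1, the FACIT gene closest in kind to Col12a1, was at 5.56, 5.55 and 5.55 in MPN and 5.33 in the control, where all values were close to the background limit. Its difference of 0.22 (SE 0.14) stands beside medians of 0.179 over all genes and 0.0785 over genes above the background limit.

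Type IX collagen decorates cartilage fibres and has the chains Col9a1, Col9a2 and Col9a3. Col9a1 was at 6.60, 6.34 and 6.32 in MPN and 6.34 in the control. Col9a2 was at 7.23, 7.36 and 6.92 in MPN and 6.81 in the control, and Col9a3 at 7.53, 7.46 and 6.98 against 6.95 in the control. All 3 MPN arrays were above the control for Col9a2 (0.36, SE 0.25) and Col9a3 (0.37, SE 0.30), by amounts within about 1.5 times the SE. The same order held for 46.8% of all genes. Col20a1 was at 5.87, 6.09 and 5.90 in MPN mice and 5.53 in the control mouse, also above it throughout, with a difference of 0.43 (SE 0.18) and adjusted p = 0.437 by limma. Col19a1 was at 5.38, 5.32 and 5.16 in MPN mice and 4.99 in the control mouse, next to the background limit. Col16a1 (6.68, 6.79 and 6.21 in MPN, 6.44 in the control) and Col22a1, a collagen of tissue junctions (6.68, 6.66 and 6.36 in MPN, 6.66 in the control), did not separate the groups. The median of the 9 FACIT genes, all above the background limit, was 0.22, against 0.0785 for all such genes. It was -0.03 after the arrays were aligned on the receptor genes.

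Among network collagens, Col8a1 was the member that differed. Type VIII collagen is a short-chain collagen of vessel walls and of the sheet under corneal endothelium. Col8a1 (probe set 10440091) was at 7.82, 6.65 and 6.36 in MPN mice and 8.83 in the control mouse. MPN mouse 1 stood between the control and the other two, and the SD of 0.77 was the widest of the 44 members. The difference was -1.89 (SE 0.70), with adjusted p = 0.418 by limma. On MPN mouse 1 Col8a1 was lower by -1.01, so it only just met the 2-fold line, and it did not meet it after repeated quantile normalisation or cyclic loess. Its partner Col8a2 was at 5.76, 5.53 and 5.43 in MPN and 5.44 in the control. Col10a1, the collagen of cartilage cells that enlarge before bone replaces them, was at 5.66, 5.49 and 5.33 in MPN and 5.51 in the control. Both overlapped the control. The median of these 3 genes was -0.02, with signs that turned without MPN mouse 3 (0.07).

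Basement membrane collagen genes contained no member past the 2-fold line. Col4a1 and Col4a2, whose products form the type IV collagen of nearly all basement membranes, had differences of -0.37 (SE 0.21) and -0.14 (SE 0.24). Col4a1 was at 6.24, 6.22 and 5.93 in MPN mice and 6.50 in the control mouse, below it throughout. Col4a2 was at 6.34, 6.24 and 5.91 in MPN mice and 6.31 in the control mouse, and the groups overlapped. Col4a3 and Col4a4, known from the kidney filter, were above the control on all 3 arrays, as were 46.8% of all genes. Col4a3 was at 5.95, 5.90 and 5.66 in MPN and 5.50 in the control, and Col4a4 at 6.02, 6.39 and 5.88 against 5.56 in the control. The Col4a4 difference of 0.54 (SE 0.27) had adjusted p = 0.46 by limma.

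The X-linked pair Col4a5 and Col4a6 lay at the background limit. Col4a5 was at 5.67, 5.49 and 5.47 in MPN mice and 5.30 in the control mouse, and Col4a6, under the limit in both groups, at 5.28, 5.35 and 4.87 against 4.98 in the control. Xist, the noncoding RNA that silences an X chromosome, was at 8.37, 9.31 and 9.22 in MPN and 3.30 in the control, so the control array differs in this X-linked measure too. The sex of the mice is not given in the sources used here, a difference in sex between the groups cannot be told apart from the MPN marrow in any value of these arrays, and its part in the collagen differences was not tested. The median of the 6 basement membrane genes was 0.21, against 0.179 for all genes, and it was -0.04 after alignment on the receptor genes. Among genes above the background limit it was 0.24, against 0.0785 for all such genes.

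**Figure D2:**
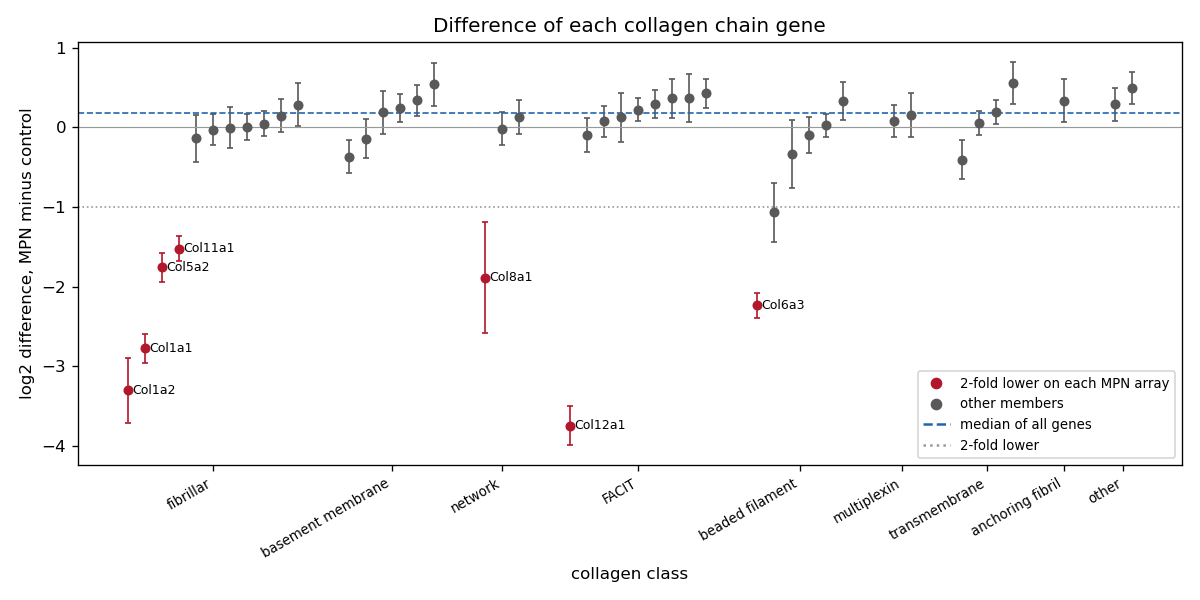
Log2 difference (MPN minus control, vertical axis) of each collagen chain gene by class, with bars of 1 SE from limma. The 7 genes at least 2-fold lower on each MPN array are red and named, from -3.75 for Col12a1 to -1.52 for Col11a1, and the rest lie around the dashed median of all genes (0.179), with Col6a1 at -1.07 between.

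Type VI collagen forms beaded filaments around cells from the products of Col6a1, Col6a2 and one further chain, most often that of Col6a3. Col6a3 (probe set 10356520) was at 6.28, 6.23 and 6.36 in MPN mice and 8.53 in the control mouse. These MPN values were close together, with an SD of 0.07, and the difference was -2.23 (SE 0.16), or 4.71-fold lower, with adjusted p = 0.0871 by limma. Col6a1 was at 6.95, 6.33 and 6.24 in MPN and 7.58 in the control. All MPN values lay below the control, but MPN mouse 1 by only -0.62, so the gene was just outside the 2-fold count, with a difference of -1.07 (SE 0.37). Without MPN mouse 1 it met the 2-fold line. Col6a2 was at 6.64, 6.73 and 5.89 in MPN and 6.75 in the control, where MPN mouse 2 differed by only -0.03. The partners of one filament thus gave unequal differences of -1.07, -0.33 and -2.23.

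Col6a4, Col6a5 and Col6a6 encode chains that can take the place of the Col6a3 product. Col6a4 was at 5.91, 5.59 and 5.49 in MPN mice and 5.33 in the control mouse, above it throughout by 0.33 (SE 0.24). Col6a5 and Col6a6 each had 2 probe sets. In the kept ones Col6a5 was at 6.29, 6.25 and 5.93 in MPN and 6.25 in the control, and Col6a6 at 6.50, 6.43 and 6.43 against 6.43 in the control. The kept probe sets differed by -0.10 and 0.02, and the others by -0.09 and 0.23. None of these 4 differences came near the 2-fold line. In Col6a5, Col6a6, Col9a1 and Col22a1, at least 1 MPN array held exactly the control's value.

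Chains of the smaller classes also stayed near the control. The multiplexins Col15a1 and Col18a1, collagens of the basement membrane zone, differed by 0.16 (SE 0.28) and 0.08 (SE 0.20). Col15a1 was at 6.43, 6.37 and 5.94 in MPN and 6.09 in the control, and Col18a1, whose product releases endostatin, at 6.24, 6.20 and 5.95 against 6.05 in the control. In both genes MPN mouse 3 was below the control and the other two above it. Of the transmembrane chains, Col13a1 differed by 0.06, Col23a1 by 0.20, and Col17a1, a component of skin hemidesmosomes, by 0.56 (SE 0.27), the largest positive difference of the 44 members. Col17a1 was at 5.84, 6.14 and 5.64 in MPN and 5.31 in the control. Col25a1 went the other way, at 6.09, 6.05 and 5.67 in MPN and 6.34 in the control, a difference of -0.40 (SE 0.25). Col13a1 was at 6.60, 6.54 and 6.48 in MPN and 6.49 in the control, and Col23a1 at 6.24, 6.31 and 6.21 against 6.06 in the control. Col7a1, the anchoring fibril collagen of skin, was at 6.73, 6.73 and 6.29 in MPN and 6.25 in the control, a difference of 0.34 (SE 0.27). Col26a1 was at 7.06, 7.14 and 6.82 in MPN and 6.72 in the control, a difference of 0.29 (SE 0.21). All 3 MPN arrays lay above the control for Col7a1, Col23a1 and Col26a1, as they did for 46.8% of all genes. Col28a1, under the background limit in both groups, differed by 0.49 (SE 0.20). None of these genes passed limma's test.

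**Figure D3:**
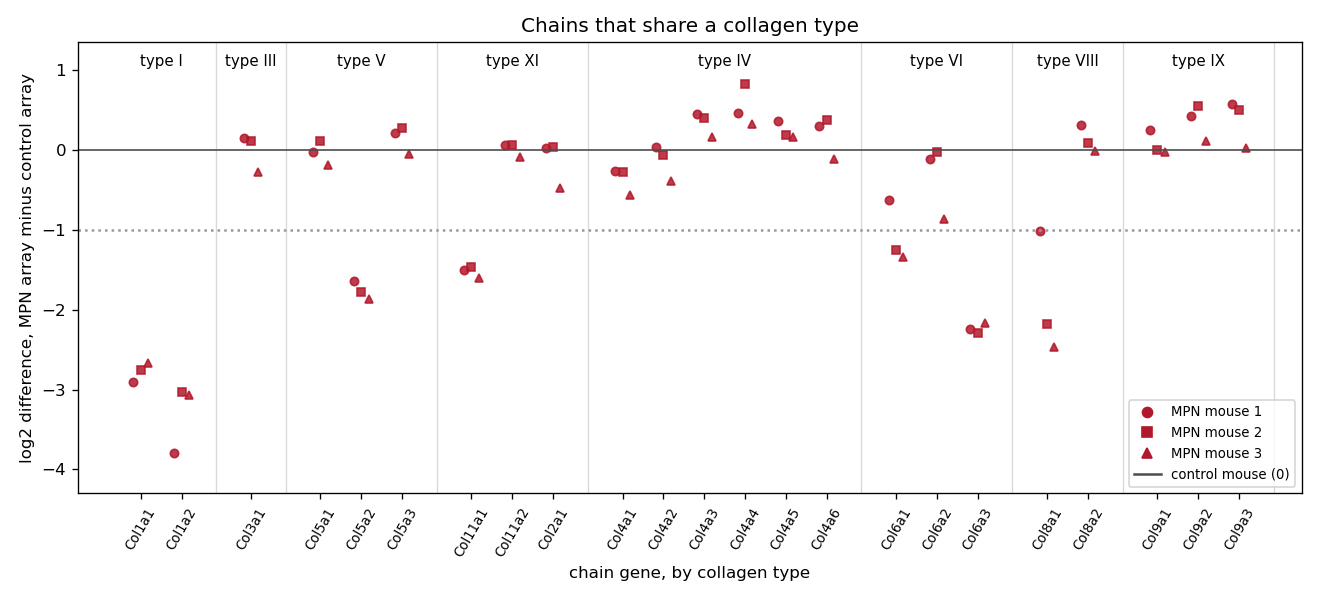
Log2 difference of each MPN array from the control array (vertical axis) for chains grouped by the collagen type they build; circles, squares and triangles are MPN mice 1, 2 and 3, the solid line is the control and the dotted line marks 2-fold lower. Both type I chains lie at or below -2.67 in every mouse, whereas in types V, XI, VI and VIII chains of one type are spread between about 0 and the dotted line or below it.

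Of the types with several chains, only type I had all of its measured chains 2-fold lower on each MPN array. In types V, XI, VI and VIII, 1 chain met that line and at least 1 partner did not, and in types IV and IX no chain did. In the RefSeq gene table of assembly GRCm38.p6, 8 pairs of members are next neighbours among protein-coding genes. Col3a1 and Col5a2 are such a pair, and their differences were 0.00 and -1.76. The head-to-head pairs of type IV had differences of -0.37 and -0.14 (Col4a1 and Col4a2), 0.34 and 0.54 (Col4a3 and Col4a4), and 0.24 and 0.19 (Col4a5 and Col4a6). Within each of those pairs the gap was 0.23 or less.

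The available promoters of the lower genes are shown beside each other, and whether these genes share regulation was not tested. RefSeq windows of 300 bases (250 before and 50 after the start site, GRCm38.p6) were matched for 35 of the 44 members, in 38 windows, and for 4 of the 7 lower members. Col1a1, Col5a2 and Col12a1 had no window. The window of Col4a1, which overlaps that of Col4a2 by 78 bases on the opposite strand, is 1 example of a gene that was not past the 2-fold line. It is not a neutral example, as Col4a1 was below the control on each MPN array, with a difference of -0.37. Capitals mark the CCAAT box and the GC box with the letters GGGCGG, on either strand; the TATA box letters TATAAA were searched too and are in none of these windows. Col1a2 is chr6:4505368-4505667 on the plus strand, Col11a1 chr3:114030290-114030589 on the plus strand, Col6a3 chr1:90843922-90844221 on the minus strand, Col8a1 chr16:57754688-57754987 on the minus strand, and Col4a1 chr8:11312777-11313076 on the minus strand.
Col1a2: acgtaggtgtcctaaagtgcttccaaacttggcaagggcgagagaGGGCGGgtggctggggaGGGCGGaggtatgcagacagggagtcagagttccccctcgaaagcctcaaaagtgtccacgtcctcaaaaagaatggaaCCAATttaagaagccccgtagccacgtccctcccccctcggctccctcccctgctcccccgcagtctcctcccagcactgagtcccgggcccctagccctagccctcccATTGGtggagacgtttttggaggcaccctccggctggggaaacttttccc
Col11a1: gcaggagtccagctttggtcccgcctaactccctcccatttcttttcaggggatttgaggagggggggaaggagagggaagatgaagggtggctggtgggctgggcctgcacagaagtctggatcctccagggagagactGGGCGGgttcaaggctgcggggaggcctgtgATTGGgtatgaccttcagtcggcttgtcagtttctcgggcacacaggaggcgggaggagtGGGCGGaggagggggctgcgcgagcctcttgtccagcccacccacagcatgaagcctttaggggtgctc
Col6a3: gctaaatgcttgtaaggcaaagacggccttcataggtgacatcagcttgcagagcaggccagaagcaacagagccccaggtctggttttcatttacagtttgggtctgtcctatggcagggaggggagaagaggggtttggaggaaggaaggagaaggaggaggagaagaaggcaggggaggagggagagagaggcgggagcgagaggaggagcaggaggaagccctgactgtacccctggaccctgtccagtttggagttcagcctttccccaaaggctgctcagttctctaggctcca
Col8a1: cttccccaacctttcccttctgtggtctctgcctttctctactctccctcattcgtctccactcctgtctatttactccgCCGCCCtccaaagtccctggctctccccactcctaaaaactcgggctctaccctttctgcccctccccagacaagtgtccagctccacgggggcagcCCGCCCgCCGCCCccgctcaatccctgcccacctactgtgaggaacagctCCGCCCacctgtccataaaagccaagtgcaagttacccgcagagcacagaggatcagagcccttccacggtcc
Col4a1: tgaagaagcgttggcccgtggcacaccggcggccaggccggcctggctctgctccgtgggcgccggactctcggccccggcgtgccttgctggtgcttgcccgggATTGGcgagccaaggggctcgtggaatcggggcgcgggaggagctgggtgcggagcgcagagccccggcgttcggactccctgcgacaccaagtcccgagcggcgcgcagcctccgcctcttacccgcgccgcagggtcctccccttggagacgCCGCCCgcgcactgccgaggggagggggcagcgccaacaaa

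The CCAAT box was present in 13 of the 38 collagen windows (34.2%), against 37.4% of all 32851 windows, and in the windows of 2 of the 4 lower genes, Col1a2 and Col11a1. The GC box was present in 23 of the 38 (60.5%), against 35.7% of all windows, and in 3 of the 4 lower genes. The TATA box letters were in 5 of the 38 (13.2%), against 13.6% of all windows, and in 0 of the 4. Col6a3, with a difference of -2.23, had none of these letters in its window, and Col4a1, with -0.37, had both the CCAAT and the GC box. The search allowed no mismatch, and the motifs do not overlap each other in the windows printed. A match is a description of the letters only.

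The MPN mice also differed from each other. MPN mouse 3 had the lowest MPN value for 39 of the 44 members (88.6%), against 52.7% of all genes. Among the 37 members outside the 2-fold count it was the lowest for 35. Among the 7 lower genes it was the lowest for 4, MPN mouse 1 for 2 and MPN mouse 2 for 1. The class medians followed: the basement membrane median was 0.33, 0.28 and 0.03 for MPN mice 1, 2 and 3, and the FACIT median 0.25, 0.32 and 0.03. The MPN SD had a median of 0.17 over the 44 members, against 0.23 over all genes, so a difference of that size is within the spread of the MPN mice.

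Genes that make, bind and break down collagen were counted beside the chains. Of 26 measured genes of collagen processing and crosslinking, 9 were at least 2-fold lower on each MPN array and 0 higher (5.78% and 1.13% of all genes). Plod2, the lysyl hydroxylase for the ends of collagen chains, was at 4.37, 5.88 and 6.11 in MPN and 9.82 in the control, a difference of -4.37 (SE 0.86). P3h2, a prolyl hydroxylase, was at 4.91, 5.28 and 4.85 in MPN and 8.58 in the control. Pcolce, which enhances the trimming of fibrillar procollagen, was at 6.65, 6.08 and 5.86 in MPN and 8.94 in the control. All of these MPN values lay below the control, as they did for 21.1% of all genes. The median of this group was -0.69, against 0.179 for all genes.

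Among collagen receptors and uptake genes, 5 of 10 were 2-fold lower on each MPN array and 0 higher (5.78% and 1.13% of all genes). Their median was -1.32, against 0.179 for all genes. Itga1, an integrin chain that binds collagen, was at 5.16, 5.03 and 5.13 in MPN and 7.95 in the control. Ddr2, a receptor kinase for fibrillar collagen, was at 4.67, 5.20 and 4.57 in MPN and 7.19 in the control. Itgb1, the partner of collagen-binding integrins, was at 8.25, 8.45 and 8.84 in MPN and 10.69 in the control. Every MPN array lay below the control for 21.1% of all genes, and no MPN value of Itga1, Ddr2 or Itgb1 reached it. Others did: Lair1, an inhibitory collagen receptor of leukocytes, was at 5.72, 5.91 and 6.86 in MPN and 5.21 in the control, and Ddr1 and Itga2 overlapped the control.

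The degradation list held proteases and the Timp inhibitors of metalloproteinases. Of 7 proteases 4 were lower and 1 higher by the same rule (5.78% and 1.13% of all genes). Of 3 inhibitors 2 were lower, Timp1 (-3.21) and Timp3 (-2.24). Mmp13, an interstitial collagenase of bone and cartilage, was at 5.08, 6.41 and 10.33 in MPN and 12.23 in the control, with MPN mouse 3 far above the other two. Ctsk, the collagen-cleaving cathepsin of osteoclasts, was at 4.93, 4.65 and 4.53 in MPN and 8.19 in the control. Mmp8, the neutrophil collagenase, was the gene that was higher, at 10.77, 10.19 and 11.04 in MPN and 5.90 in the control. It is also on the neutrophil list, whose summed levels are given above. All MPN values lay below the control for Mmp13 and Ctsk, as they did for 21.1% of all genes. For Mmp8 they lay above it, as they did for 46.8% of all genes.

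**Figure D4:**
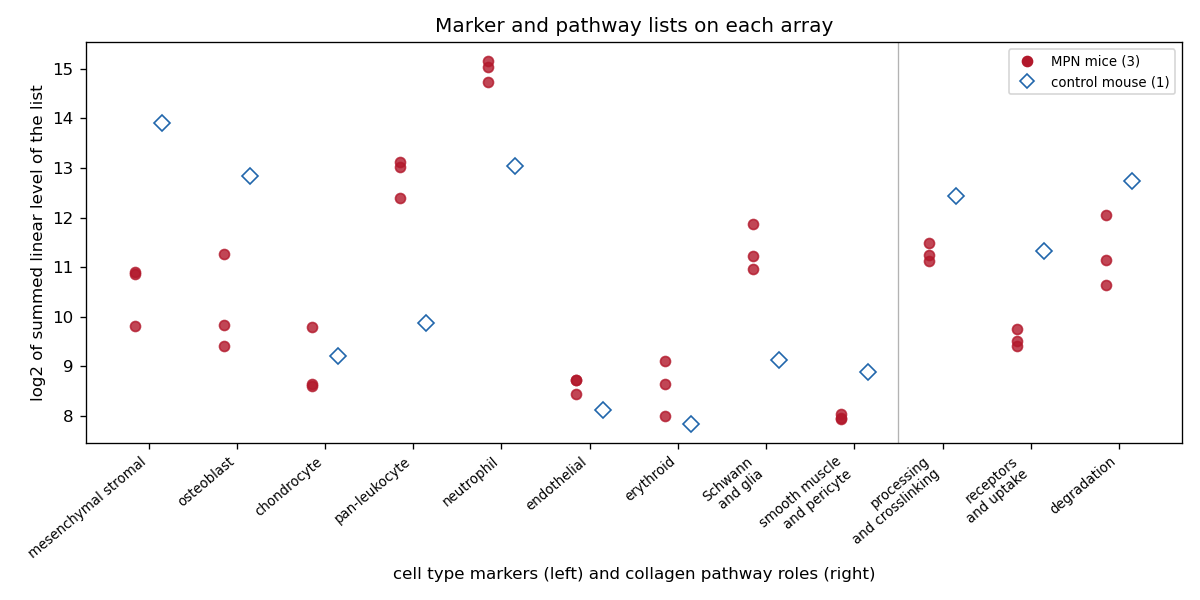
Log2 of the summed linear level (vertical axis) of each cell type marker list and each collagen pathway role on the 3 MPN arrays (red points) and the control array (blue diamond). The mesenchymal stromal sum is lower in MPN (904 to 1908 against 15276 on the linear scale) and the pan-leukocyte sum higher (5361 to 8940 against 942), as are the neutrophil sums.

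Osteoblast markers, another textbook source of type I collagen, were also lower beside the collagen genes. Of 6 measured osteoblast markers, 5 were 2-fold lower on each MPN array, against 5.78% of all genes. The summed level of the 6 was 684 to 2454 in MPN against 7279 in the control. Ibsp, a bone matrix sialoprotein, was at 8.55, 11.04 and 9.34 in MPN mice and 12.42 in the control mouse, highest among MPN mice in mouse 2. Smooth muscle and pericyte markers had sums of 244 to 263 in MPN and 470 in the control, but a median difference of 0.01. Of these 7 genes 2 (Rgs5 and Myl9) were 2-fold lower on each MPN array, against 5.78% of all genes. Acta2 and Myh11 lay above the control on all 3 MPN arrays, and Tagln, Cspg4 and Cnn1 overlapped it. Schwann and glia markers had sums of 2005 to 3729 in MPN and 561 in the control, with a median difference of 0.44. Of these 5 genes 2 (S100b and Mbp) were 2-fold higher on each MPN array, against 1.13% of all genes. The sums of erythroid markers were 254 to 553 in MPN and 227 in the control. Whether these lists account for any of the collagen differences was not tested.

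Direction depended on the alternative used for some of the members near the control, and not for the lower ones. Other members near the control kept 1 sign throughout, such as Col4a4 (0.28 to 0.65) and Col25a1 (-0.66 to -0.22). As deposited, 18 of 44 members had a negative difference, against 32 after alignment on the receptor genes and 11 after repeated quantile normalisation. The median difference of all genes moved as well, at 0.179, -0.078 and 0.111 in that order, so these counts are not particular to collagen genes. The 7 lower genes had negative differences in all 9 alternatives computed for each, and 6 of them were 2-fold lower on each MPN array in all of those alternatives, the exception being Col8a1. Across the alternatives the difference ran from -3.03 to -2.71 for Col1a1, from -3.56 to -3.05 for Col1a2, from -4.00 to -3.63 for Col12a1 and from -2.49 to -2.03 for Col6a3. After cyclic loess, Col1a1 and Col12a1 passed limma's test over all genes (adjusted p = 0.0485 for both), and they also passed after alignment on the receptor genes (adjusted p = 0.0482 and 0.046). With 1 mouse left out, the adjusted p of each was 0.259 to 0.454.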

How the data were processed

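RNA of 4 sorted cell samples was hybridised to Affymetrix mouse gene arrays after NuGEN Ovation amplification, as the design text and labels state. The deposited values are log2 values made by the authors with RMA (background correction, normalisation to one distribution, summary of probes), per the submitters' processing notes. RMA compresses differences near background. The version of RMA is not given in the sources used here, and neither is a genome build. Arrays have no read depth, and their number limits the precision.

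Of 35556 probe sets, 21789 had 1 gene symbol, 1621 several and 12146 were unnamed here. No collagen symbol differed from RefSeq by gene identifier. The background limit is the 95th percentile of 1194 receptor genes. MPN was set against control with lmFit and eBayes of limma 3.58.1 (R 4.3.3, two-sided, Benjamini-Hochberg over 19938 genes), with 2 residual degrees of freedom. The labels number the MPN samples as mice, and each array was taken as 1 mouse. The steps were checked on simulated data with planted differences larger than any of the collagen genes. That check therefore does not cover differences of the size reported here. Every member above the background limit was to be described, and pathway genes by the largest differences in each role. The members, classes and lists were chosen with earlier results of these data known. Alternatives left out each MPN mouse, averaged probe sets, filtered on the limit, rescaled the arrays, changed the variance prior or used a fold of 3.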

Additional observations from a re-analysis of the deposited data

How the results depend on the processing

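No paired analysis was possible because the control is a single mouse whose label carries no number. The count of collagen genes past the adjusted threshold was 0 as deposited, 2 after cyclic loess, 2 after alignment on the receptor genes and 1 (Col12a1) with a trended robust prior. Over all genes the same settings called 0, 95, 153 and 167. The count 2-fold lower was 7 to 8 with 1 MPN mouse left out, where 6.58% to 8.81% of all genes met the line, and 5 at a fold of 3 (11.4%, against 2.89% of all genes). The count 2-fold higher was 0 in every alternative run. After alignment on the receptor genes the medians were -0.19 over all members, -0.29 for fibrillar, -0.042 for basement membrane, -0.27 for network and -0.033 for FACIT genes. Repeated quantile normalisation gave 0.23 over all members and 0.19 for fibrillar genes, and cyclic loess 0.037 for basement membrane, -0.18 for network and 0.11 for FACIT genes. With 1 MPN mouse left out, medians ran from 0.03 to 0.13 for all members, -0.10 to 0.05 for fibrillar, 0.15 to 0.31 for basement membrane, -0.10 to 0.07 for network and 0.22 to 0.30 for FACIT genes. Alignment moves every gene alike, by its construction, and the cause of the other changes was not tested. Of 394 values of single members under the alternatives, 331 moved by less than the SD of the MPN arrays, 63 by more, and 0 of the 2-fold lower genes changed sign.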
